A study of Mus musculus with 54 samples.

Results

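The mouse Schlafen family was followed through 2 RNA sequencing experiments on peritoneal macrophages, as the read counts of Slfn1, Slfn2, Slfn3, Slfn4, Slfn5, Slfn8 and Slfn9. These 7 genes were chosen by name, as 7 of the 39179 gene identifiers in the count tables, and all of them passed the expression filter of both experiments. The cells were adherent peritoneal exudate macrophages from C57BL/6 mice of 8 to 20 weeks, drawn after injection of thioglycolate, a sterile irritant. In the polarization experiment, macrophages of 3 mice were polarized for 24 h: IFNγ (50 ng/ml) was added together with LPS (100 ng/ml) for the M1-like state, IL-4 (10 ng/ml) for the M2-like state, and nothing for M0. In the reprogramming experiment, the same 3 states were made with the same stimuli for 24 h, and the cells were sequenced either untransfected or 48 h after the transfection reagent DharmaFECT 4 alone (mock), without IL-4. M2-like macrophages further received a negative control siRNA pool, a pool against E2f1, Stat6, Pparg or Myc, or the pools against all 4 factors together (iM1), also with DharmaFECT 4. Each of these 12 conditions had 3 replicates, giving 15 conditions with 3 samples each in both experiments. The labels do not say that the replicates of the reprogramming experiment came from separate animals, so P values there measure the spread between these samples. The study's methods place sequencing of untransfected cells at 24 h of polarization without saying whether this covers the untransfected samples of the reprogramming experiment, so reagent and culture time cannot be told apart in comparisons with them.

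Schlafen genes are a family found in mammals and are named for their effect on cell growth. Short members (Slfn1, Slfn2) hold little more than the conserved Schlafen core, intermediate members (Slfn3, Slfn4) carry an added linker region, and long members (Slfn5, Slfn8, Slfn9) also carry a helicase-like region. Slfn1 restrains growth when expressed in T cells, Slfn2 keeps lymphocytes and monocytes in quiescence and shields tRNA from cleavage by angiogenin, Slfn3 is known from enterocyte differentiation, and Slfn4 from cells of the myeloid lineage. Many members are induced by type I interferon, whose receptor signals to transcription factors that bind the interferon-stimulated response element (ISRE).

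Libraries held 13421854 to 29880494 reads assigned to genes. The technical replicates of the polarization experiment, 2 for each mouse and condition, differed by a chi-square per gene of 1.07 to 1.09, against 3.47 to 48.6 between mice, and were summed to 39577911 to 59443987 reads. The macrophage markers (7 genes) summed to 6211 to 18320 CPM (counts per 1000000 counted reads, with library sizes scaled by TMM) over all samples, and the T cell markers (3 genes) to at most 1.18 CPM. Other cell types had higher sums, of up to 415 CPM for mesothelial cell and fibroblast markers (7 genes). Eosinophil markers (4 genes) reached 46.1 CPM and B cell markers (4 genes) 33.2 CPM. Each siRNA pool lowered its targets relative to the negative pool: the single pools lowered Myc by a log2 difference of -1.38, Pparg by -2.19, E2f1 by -1.98 and Stat6 by -1.87, and iM1 lowered them by -1.34, -1.82, -0.73 and -0.89. The single pools were not all confined to their own target. Of the 4 targets, 2 were lower than with the negative pool at an adjusted P under 0.05 (edgeR) for the Myc, E2f1 and Stat6 pools. For the Pparg pool it was 1 of 4, and the negative pool itself lowered 1 of 4 relative to mock. Since RNA was taken from whole cultures, more cells expressing a gene and more RNA per cell cannot be told apart.

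The 7 genes lie in 1 cluster of 263.8 kb on mouse chromosome 11, at chr11:82951349-83215154 in GRCm38. From low to high coordinates, the annotation (GENCODE M21) lists Slfn5 (chr11:82951349-82964840, forward strand, 8 exon blocks), Slfn9 (chr11:82978390-82991830, reverse, 6) and Slfn8 (chr11:83002158-83020810, reverse, 6). They are followed by Slfn2 (chr11:83065112-83070678, 2 exon blocks), Slfn1 (chr11:83116849-83122670, 2), Slfn4 (chr11:83175186-83190216, 8) and Slfn3 (chr11:83191330-83215154, 5), all on the forward strand. The cluster also holds the pseudogene Slfn10-ps, with 5.36 to 62.0 CPM over all samples. Slfn14, near the cluster, had at most 2 reads and Slfnl1, on chromosome 4, at most 4 reads in any sample, so that these 2 genes were near or at 0 throughout.

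The members are close copies of each other over parts of their exons, and how reads that map to several places were treated is not given in the sources used here. Of all 50-nt stretches, the read length of the polarization experiment, 47.1% in Slfn8, 35.0% in Slfn9, 30.8% in Slfn3 and 24.9% in Slfn4 came within 2 mismatches of another Schlafen gene. The share was 13.8% in Slfn2, 3.91% in Slfn1 and 0 in Slfn5. At 150 nt, the read length of the reprogramming experiment, it was 8.54% in Slfn9, 6.41% in Slfn3, 6.20% in Slfn8, 5.21% in Slfn4 and 0 in the other 3. As far as copies within the family go, values of Slfn8, Slfn9, Slfn3 and Slfn4 are therefore less certain than those of Slfn5 and Slfn1, above all in the polarization experiment. Outside the family, 11.1% of the 50-nt stretches of Slfn5 also occurred exactly in other genes, Slfn5os among them. At 150 nt this share was 5.46%, in Slfn5os. Slfn5 shares 559 exon bases with the antisense gene Slfn5os, which had at most 1 read in any sample, and strand is not stated for the counts.

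**Figure D1:**
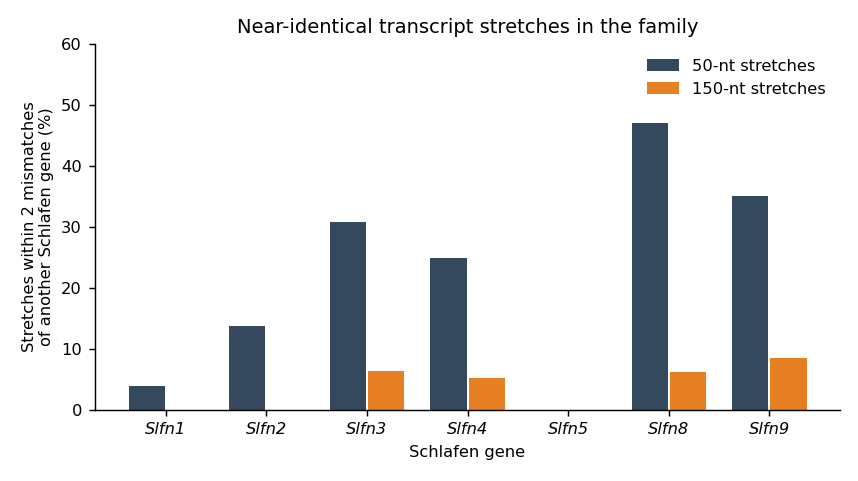
Share (%, y axis) of the 50-nt (dark) and 150-nt (orange) exon stretches of each Schlafen gene (x axis) that come within 2 mismatches of another Schlafen gene. Slfn8 has the highest share at 50 nt (47.1%), and at 150 nt every share is below 10%.

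The proximal promoters are shown to set the members side by side for the ISRE, a motif of interferon-induced genes, and whether it bears on the levels below was not tested. The window from 250 bases before to 50 bases after each start site (RefSeq, GRCm38.p6) was searched on both strands for it, written as GAAA, any 2 bases and GAAA. It was present in 3 of the 7 genes, Slfn5, Slfn8 and Slfn9, against 3.44% of 32851 promoters of the same length. The capitals mark the match, which reads in reverse complement in Slfn9 and Slfn8, and each sequence runs 5′ to 3′ on the strand of its gene (Slfn5, chr11:82951922-82951981, forward; Slfn9, chr11:82991841-82991900, reverse; Slfn8, chr11:83020824-83020883, reverse):
Slfn5: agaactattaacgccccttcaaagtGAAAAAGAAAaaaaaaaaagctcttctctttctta
Slfn9: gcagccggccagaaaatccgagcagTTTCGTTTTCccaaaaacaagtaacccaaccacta
Slfn8: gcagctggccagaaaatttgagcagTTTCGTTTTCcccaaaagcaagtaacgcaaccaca
Slfn9 and Slfn8 were identical at 32 of the 35 positions up to the end of the match, which ends 36 and 39 bases before the start site (for Slfn8, the start site nearest to it).

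With at most 1 of the 8 fixed letters changed, a looser search added after the first one, all 7 genes held a match, against 35.4% of promoters, so that such a match is common. In the windows below, the match of Slfn2 and that of Slfn4 read in reverse complement. Slfn4 held a further looser match, TAAAATGAAA, outside the window shown. The windows of the short members and of Slfn4, the genes with the widest range of levels or the highest level per length, are shown with the looser match in capitals, all on the forward strand (Slfn1, chr11:83116762-83116819; Slfn2, chr11:83065028-83065087; Slfn4, chr11:83174936-83174995):
Slfn1: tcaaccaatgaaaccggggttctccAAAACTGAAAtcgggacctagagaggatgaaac
Slfn2: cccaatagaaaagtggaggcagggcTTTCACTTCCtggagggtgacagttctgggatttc
Slfn4: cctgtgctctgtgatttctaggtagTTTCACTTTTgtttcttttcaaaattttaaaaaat
The STAT motifs, TTC and GAA with 3 or 4 bases between them, and the E-box CACGTG, bound by MYC, were in 0 of the 7 windows, against 8.30%, 6.95% and 7.15% of all promoters. Motif matches describe these letters only.

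All 7 Schlafen genes were higher in M1-like macrophages than in their M2-like counterparts after 24 h of polarization, with log2 differences of 2.70 to 8.42 and a median of 3.73, against a median of -0.06 over the 16110 genes tested. In the same comparison 34.6% of all genes tested were called higher (edgeR's quasi-likelihood test, Benjamini-Hochberg adjusted P under 0.05, used for every call below). Against M0 macrophages, all 7 genes were likewise higher in M1-like macrophages, by 2.39 to 7.78 (adjusted P between 1.64e-13 and 2.81e-09), where 35.4% of all genes were called higher. Both comparisons share the M1-like samples. The samples did not overlap in any of these 14 comparisons of 1 gene.

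Slfn1, the founding short member, had the widest range. Its level was 1.64, 2.05 and 2.004 CPM in the M0 macrophages of mice 1, 2 and 3, 1.23, 1.06 and 1.38 CPM in their M2-like macrophages, and 389, 412 and 457 CPM in their M1-like macrophages. The gene was thus near the bottom of the range in M0 and M2-like macrophages and high in every M1-like sample, 343-fold above M2-like (log2 difference 8.42, SE 0.12, adjusted P = 1.61e-13). Slfn2, the other short member, started from a far higher level: 113, 111 and 114 CPM in M0 samples, 119, 102 and 97.8 CPM in M2-like samples and 899.6, 926 and 1074 CPM in M1-like samples. Its rise over M2-like was 9.08-fold (log2 difference 3.18, SE 0.09, adjusted P = 2.52e-11).

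Among the intermediate members, Slfn4 had 13.6, 15.5 and 18.0 CPM in M0 samples, 14.3, 12.6 and 14.6 CPM in M2-like samples and 451, 462 and 859.6 CPM in M1-like samples. Mouse 3 stood above the other two in M1-like macrophages, while M0 and M2-like overlapped, and the difference between M1-like and M2-like was 42.7-fold (log2 5.41, SE 0.25, adjusted P = 1.51e-09). Slfn3, the other intermediate member, was scarce, at 4.20 to 5.09 CPM in M0 samples, 4.13 to 5.39 CPM in M2-like samples and 35.4, 36.3 and 51.3 CPM in M1-like samples, a rise of 8.93-fold (log2 3.16, SE 0.16, adjusted P = 2.83e-09).

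Of the long members, Slfn5 had the smallest rise, from 148, 135 and 142 CPM in M2-like to 926, 877 and 965 CPM in M1-like macrophages, which was 6.51-fold (log2 2.70, SE 0.07, adjusted P = 7.23e-12). Slfn8 rose 18.2-fold (log2 4.18, SE 0.11, adjusted P = 1.07e-11), with 31.9, 27.8 and 28.7 CPM in M2-like and 497, 516 and 593 CPM in M1-like macrophages. Slfn9 rose 13.2-fold (log2 3.73, SE 0.12, adjusted P = 6.97e-11), from 5.62 to 6.95 CPM in M2-like to 72.0 to 89.3 CPM in M1-like macrophages. Within the long members the levels thus spread widely, although all 3 rose.

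**Figure D2:**
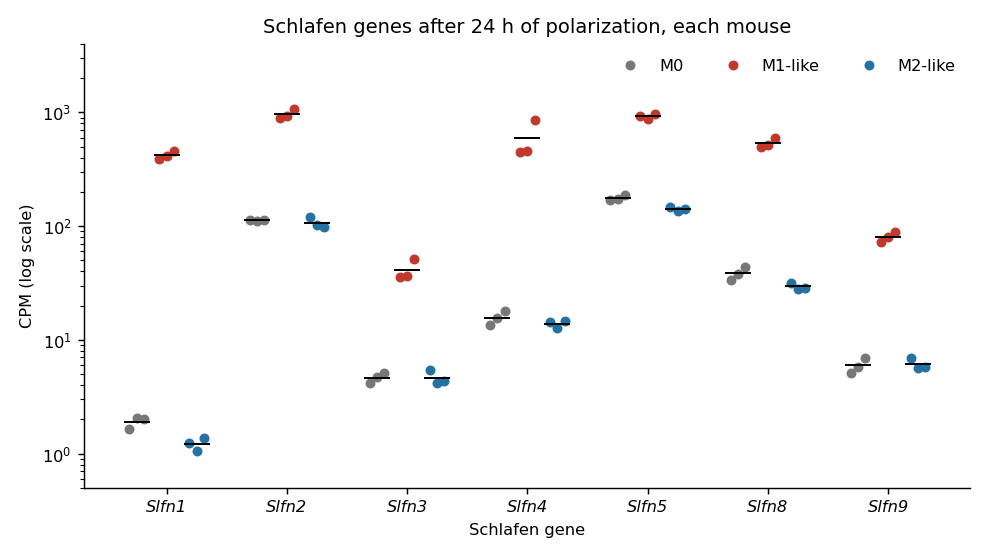
Level (CPM, log scale, y axis) of each Schlafen gene (x axis) in M0 (grey), M1-like (red) and M2-like (blue) macrophages of the polarization experiment, 1 point per mouse, with the mean of 3 mice as a line. For every gene the M1-like points lie above all M0 and M2-like points, from 6.51-fold over M2-like for Slfn5 up to 343-fold for Slfn1.

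M2-like and M0 macrophages differed far less. Slfn1 (log2 difference -0.64, SE 0.14, adjusted P = 0.00491), Slfn5 (-0.32, SE 0.07, adjusted P = 0.00411) and Slfn8 (-0.39, SE 0.10, adjusted P = 0.0150) were lower in M2-like macrophages, 3 of 7 genes against 14.4% of all genes called lower, and their samples did not overlap. The call of Slfn8 was lost without the M0 sample of mouse 3 (-0.28, adjusted P = 0.0688) or the M2-like sample of mouse 2 (-0.35, adjusted P = 0.0561). Slfn2, Slfn3, Slfn4 and Slfn9 did not pass the test, with differences between -0.18 and 0.03, and the widest 95% interval among them, that of Slfn4, ran from -0.62 to 0.25.

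The genes of interferon signalling moved beside the family in the polarization experiment. All 20 interferon-stimulated genes of a list (Isg15, Ifit1, Mx1, Oas2 and others) were higher in the M1-like state than in the M2-like state, with a median log2 difference of 6.04, and 13 of the 16 measured ligands, receptors and signal transducers were higher and 1 lower (median 2.06). Slfn1 (8.42) exceeded the median of the 20 interferon-stimulated genes, and the other 6 Schlafen genes, from Slfn5 (2.70) to Slfn4 (5.41), were below it. Of 5 genes that cleave tRNA or control the cleavage, 4 were lower in M1-like macrophages: Ang, which codes for angiogenin (-1.83), Rnase4, a ribonuclease that shares promoters with Ang (-1.78), the inhibitor Rnh1 (-0.43) and the tRNA methyltransferase Nsun2 (-0.27), in a comparison where 6130 of the 16110 genes tested were called lower. Of the 9 measured genes among 14 protein-coding neighbours within 250 kb of the cluster, 2 were higher (Rffl by 1.40, Ap2b1 by 0.50) and 4 lower, with a median of -0.42. The mesothelial cell and fibroblast markers summed to 9.16 to 12.3 CPM in M1-like samples, 15.4 to 20.5 CPM in M2-like samples and 19.3 to 32.4 CPM in M0 samples. The 4 eosinophil markers summed to 0.270 to 0.817 CPM in M1-like samples, with Epx and Prg2 at 0, against 14.1 to 19.1 CPM in M2-like samples (Epx and Prg2 at 0) and 15.6 to 17.0 CPM in M0 samples (Prg2 at 0). The 7 macrophage markers summed to 10281 to 11296 CPM in M1-like, 12706 to 13039 CPM in M2-like and 16107 to 17376 CPM in M0 samples. The part of these markers in the results was not tested.

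In the untransfected macrophages of the reprogramming experiment, all 7 genes again stood higher in the M1-like state than in the M2-like one, by 0.89 to 6.07 on the log2 scale, with a median of 1.73 (31.3% of all 14172 genes tested were called higher). The 2 experiments were normalized separately and their levels were not compared by a test. Slfn1 had 36.9, 58.9 and 64.1 CPM in the M1-like samples and 0.787, 0.773 and 0.794 CPM in the M2-like samples, the latter resting on 11 to 12 reads per sample. The groups were 67.2-fold apart (log2 difference 6.07, SE 0.55, adjusted P = 2.41e-11). Slfn8 followed with 1.85 (SE 0.15, adjusted P = 1.18e-12), from 19.7 to 21.4 CPM in M2-like to 63.5 to 93.4 CPM in M1-like macrophages. Slfn3 rose by 1.83, Slfn4 by 1.73, Slfn9 by 1.45, Slfn2 by 0.97 and Slfn5 by 0.89, all without overlap of the samples. Of the 9 measured neighbours of the cluster, 7 were higher and 1 lower in this comparison (median 0.34). The lower tRNA cleavage genes of the polarization experiment did not recur. Of the 5 genes of that list, Nsun2 was higher (0.17) and 0 were lower, with Ang at -0.08, Rnase4 at 0.13 and Rnh1 at 0.11.

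Against untransfected M0 macrophages, 6 of 7 genes were higher in M1-like macrophages (29.0% of all genes), by 0.42 for Slfn5 to 3.99 for Slfn1. Slfn4 (0.78, SE 0.34, adjusted P = 0.0523) did not pass the test, and it did without the M0 replicate 1 (1.08, adjusted P = 0.0199) or the M1-like replicate 3 (1.07, adjusted P = 0.00975). Untransfected M2-like were below M0 macrophages for Slfn5 (-0.47, SE 0.12, adjusted P = 0.00698) and Slfn8 (-0.59, SE 0.15, adjusted P = 0.00518), 2 of 7 genes with 9.19% of all genes called lower. The call of Slfn5 was lost without the M0 replicate 1 (-0.34, adjusted P = 0.0828). For Slfn1, levels of 5.56, 2.92 and 1.71 CPM in M0 lay above those in M2-like macrophages, with a difference of -2.08 that did not pass (SE 0.80, adjusted P = 0.0622) but did without the M0 replicate 3 (-2.40, adjusted P = 0.0445). Slfn4 (-0.96, adjusted P = 0.0868) passed without the M0 replicate 3 (-1.24, adjusted P = 0.0374) or the M2-like replicate 1 (-1.42, adjusted P = 0.0315).

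Mock transfection, the control for the reagent, came with higher Schlafen levels in M0 and M2-like macrophages and not in M1-like macrophages. With mock, all 7 genes rose over untransfected M2-like cells, by 0.76 to 4.84 on the log2 scale, where only 1.67% of all genes were called higher. In M0 macrophages all 7 rose as well, by 1.11 to 3.67, where 11.7% of all genes were called higher. In M1-like macrophages 0 of 7 genes passed by edgeR or by DESeq2, and 0 had an unadjusted P under 0.05. Their differences lay between -0.13 and 0.12, and over all genes edgeR called 0% there (438 of 14172 genes at an unadjusted P under 0.05, and 0 called by DESeq2).

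Slfn1 went from 0.787, 0.773 and 0.794 CPM in untransfected to 10.8, 28.3 and 29.1 CPM in mock M2-like macrophages, 28.5-fold (log2 difference 4.84, SE 0.59, adjusted P = 5.24e-07). In M0 macrophages it went from 5.56, 2.92 and 1.71 CPM to 16.3, 33.7 and 77.8 CPM, 12.7-fold (3.67, SE 0.43, adjusted P = 1.14e-07). Every mock sample was above every untransfected one, and the M0 mock replicate 3 stood apart as the highest: without it, the M0 difference was 2.92 (adjusted P = 9.46e-07). In M1-like macrophages the untransfected samples had 36.9, 58.9 and 64.1 CPM and the mock samples 51.8, 58.8 and 63.3 CPM, a difference of 0.12 (95% interval -0.49 to 0.74) with overlap.

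Slfn2 went from 132, 115 and 137 CPM to 189, 227 and 234 CPM in M2-like macrophages (0.76, SE 0.13, adjusted P = 0.000316) and from 139.9, 112 and 119.7 CPM to 216, 234 and 351 CPM in M0 macrophages (1.11, SE 0.13, adjusted P = 1.50e-07). The rise of this already abundant gene was the smallest in the family in both cell states. In M1-like macrophages Slfn2 had 217, 279 and 260.5 CPM without and 222, 275 and 256 CPM with the reagent, a difference of -0.01 (95% interval -0.26 to 0.25).

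Slfn5, the long member without near copies in the family, rose in M2-like macrophages from 135, 114 and 109.7 CPM to 281, 378 and 405 CPM (1.57, SE 0.12, adjusted P = 8.91e-11). In M0 macrophages it rose from 194, 149 and 154 CPM to 368, 429 and 537 CPM (1.43, SE 0.12, adjusted P = 2.98e-10), while M1-like macrophages had 200.2, 248 and 215 CPM without and 227, 253 and 228 CPM with the reagent. The mock M0 and M2-like samples thus lay above all M1-like samples of both kinds. Slfn8 rose by 1.60 in M2-like and 1.43 in M0 macrophages, Slfn9 by 1.41 in both and Slfn3 by 1.31 and 1.30, all with adjusted P of 0.000237 or lower. Slfn4 went from 9.51, 5.41 and 3.24 CPM to 14.1, 24.5 and 13.9 CPM in M2-like macrophages (1.54, SE 0.38, adjusted P = 0.0206). This call was lost without the mock M2-like replicate 2 (1.22, adjusted P = 0.220), the M2-like replicate 2 (1.47, adjusted P = 0.109) or the M2-like replicate 3 (1.24, adjusted P = 0.230). In M0 macrophages Slfn4 rose by 1.34 (adjusted P = 0.00376), a call lost without the M0 mock replicate 3 (0.92, adjusted P = 0.0608).

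The difference between these responses was tested itself. The M1-like response to mock was smaller than the M2-like response for 6 of 7 genes, where 1.09% of all genes were called lower, and smaller than in M0 macrophages for 6 of 7 genes, where 5.85% were. For Slfn1 it was smaller by a log2 difference of -4.71 (SE 0.70, adjusted P = 4.31e-05) and -3.55 (SE 0.54, adjusted P = 3.29e-05), the latter being -2.80 (adjusted P = 9.55e-05) without the M0 mock replicate 3. Slfn4 was the exception in both, at -1.47 (adjusted P = 0.269) and -1.27 (adjusted P = 0.0813), and passed against M0 without the M0 replicate 1, the M1-like replicate 3 or the M1-like mock replicate 1 (-1.58, -1.56 and -1.62). The 2 tests share the M1-like samples. Against M2-like, the call of Slfn2 (-0.76, adjusted P = 0.0281) was lost in 7 of the 12 fits that left out 1 sample of the comparison, with adjusted P between 0.0549 and 0.115, and that of Slfn9 (-1.34, adjusted P = 0.0112) without the mock M2-like replicate 2 (-1.15) or the M2-like replicate 1 (-1.24).

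After mock transfection little of the polarization pattern was left among the Schlafen genes. Between mock M1-like and mock M2-like macrophages, Slfn1 (1.36, SE 0.33, adjusted P = 0.000785) and Slfn8 (0.37, SE 0.14, adjusted P = 0.0187) were higher in M1-like and Slfn5 was lower (-0.59, SE 0.12, adjusted P = 0.000107), 3 of 7 genes in a comparison where 60.7% of all genes were called in either direction. The Slfn8 call was lost without the M1-like mock replicate 2 (0.29) or the M2-like mock replicate 1 (0.23), and Slfn3 (0.39, adjusted P = 0.0784) passed without the M1-like mock replicate 3 (0.49) or the M2-like mock replicate 2 (0.54). Slfn2, Slfn4 and Slfn9 differed by 0.21, 0.26 and 0.10 and did not pass. Against mock M0, Slfn5 alone was lower in mock M1-like macrophages (-0.91, SE 0.12, adjusted P = 1.21e-07), where 30.0% of all genes were called lower. Slfn1 (0.44) passed as higher without the M0 mock replicate 3 (1.19, adjusted P = 0.00106) and Slfn4 (-0.49) as lower without the M1-like mock replicate 1 (-0.84, adjusted P = 0.0357). Between mock M1-like and mock M2-like macrophages, 5 of the 9 measured neighbours of the cluster were higher and 1 lower (4373 of 14172 genes were called higher).

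Mock M2-like and mock M0 macrophages gave 0 of 7 calls by edgeR, against 3.83% of all genes called in either direction. At an unadjusted P under 0.05, 5 of the 7 genes were lower in mock M2-like macrophages, where 2515 of 14172 genes passed in either direction. DESeq2 called 1, Slfn8 (edgeR -0.42, SE 0.14, adjusted P = 0.0745), and 702 of 12388 genes over all. Without the M0 mock replicate 1, Slfn1 (-1.29), Slfn5 (-0.44) and Slfn8 (-0.54) passed, and Slfn8 also did without the M2-like mock replicate 2 (-0.56).

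**Figure D3:**
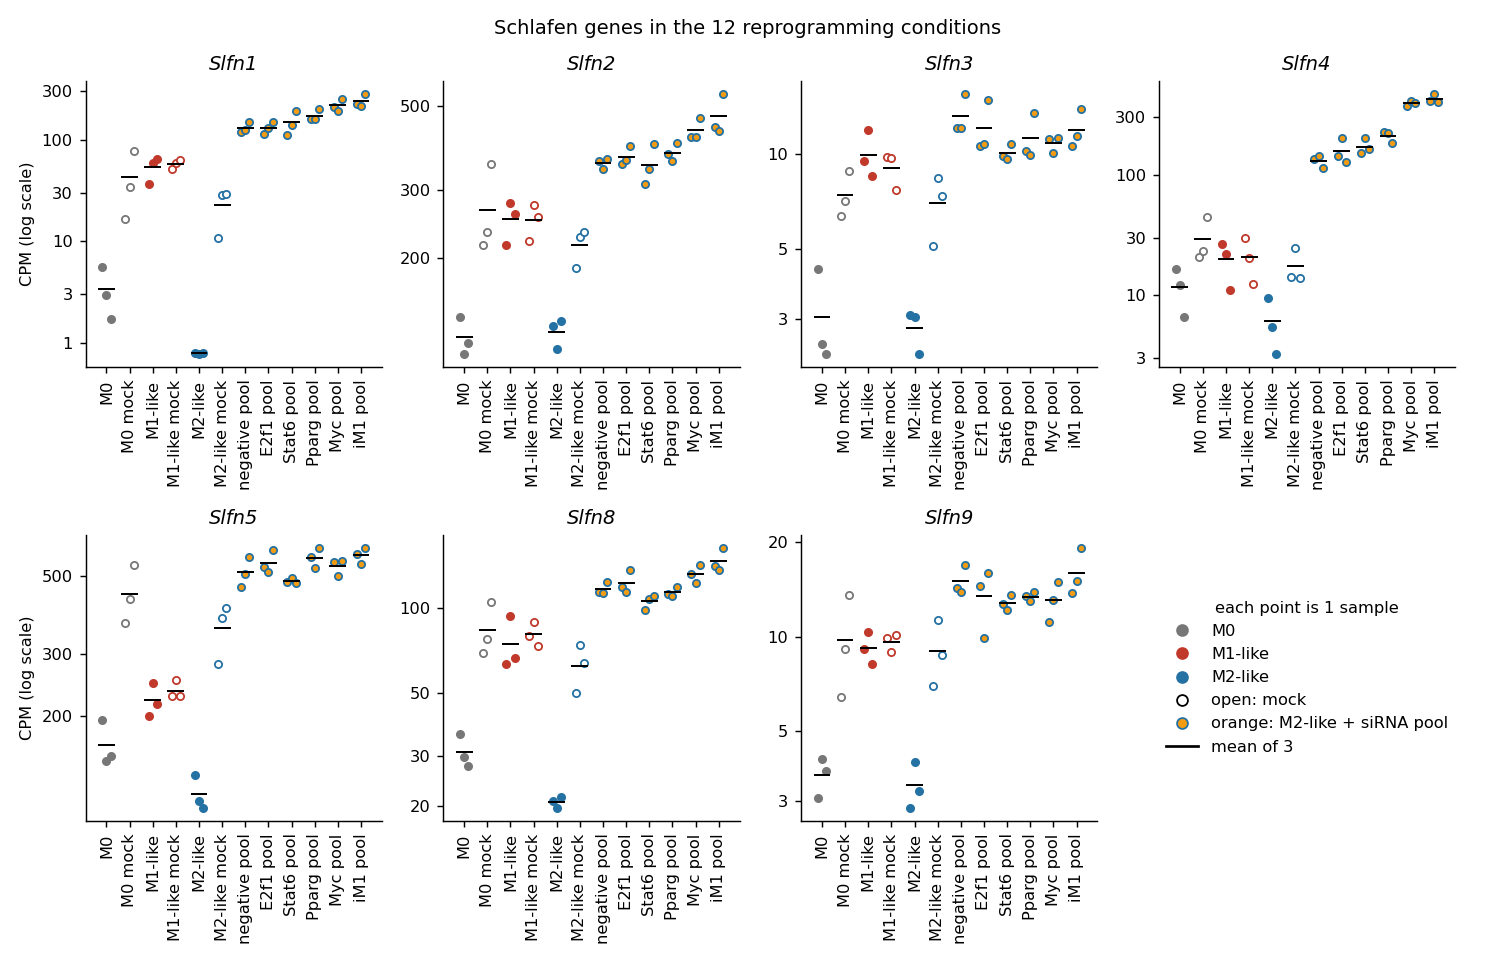
Level (CPM, log scale, y axis) of the 7 Schlafen genes, 1 panel each, in the 12 conditions of the reprogramming experiment (x axis), with 1 point per sample, open for mock, orange for M2-like macrophages with an siRNA pool, and the mean of 3 as a line. Mock points lie above untransfected ones in M0 (grey) and M2-like (blue) but overlap them in M1-like (red) macrophages, and Slfn4 with the Myc or iM1 pool (374 to 468 CPM) is above all other conditions.

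Interferon-stimulated genes followed the same contrasts. All 20 of the list rose with mock transfection in M0 macrophages (median log2 difference 2.71) and in M2-like macrophages (median 3.10), 0 of 20 passed in M1-like macrophages (median 0.18), and all 20 passed both tests of the difference in response, with medians of -2.88 against M2-like and -2.62 against M0. Medians over all genes tested were within 0.01 of 0 in these comparisons. Among 17 ligands, receptors and transducers, 6 rose in M2-like macrophages, among them the transcription factors Irf7 (4.62), Stat2 (1.72), Irf9 (1.26) and Irf1 (0.60), and Usp18, a brake on the type I interferon receptor (3.60). In M0 macrophages 7 rose and Ifnar1, a receptor chain, fell (-0.21). Of the neighbours of the cluster, 0 passed in M2-like macrophages and 1, lower, in M0 macrophages. The B cell markers summed to 0.672 to 2.36 CPM in M1-like samples with and without mock, against 6.01 to 33.2 CPM in the other conditions, and the mesothelial cell and fibroblast markers to 20.2 to 88.8 CPM in these M1-like samples against 101 to 366 CPM in untransfected and mock M2-like samples. In the same M1-like samples the eosinophil markers summed to 0.610 to 1.70 CPM (9.47 to 46.1 CPM in the other conditions), the mast cell markers to 0.126 to 0.803 CPM (2.11 to 9.48 CPM), the neutrophil markers to 0 to 0.244 CPM (0.546 to 5.62 CPM) and the macrophage markers to 6211 to 7786 CPM (11632 to 18320 CPM). Only 1 of the 4 eosinophil markers reached a mean of 1 CPM in each condition, and the neutrophil marker Ly6g was at 0 in all of them. The part of these markers in the smaller response of M1-like macrophages was not tested.

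**Figure D4:**
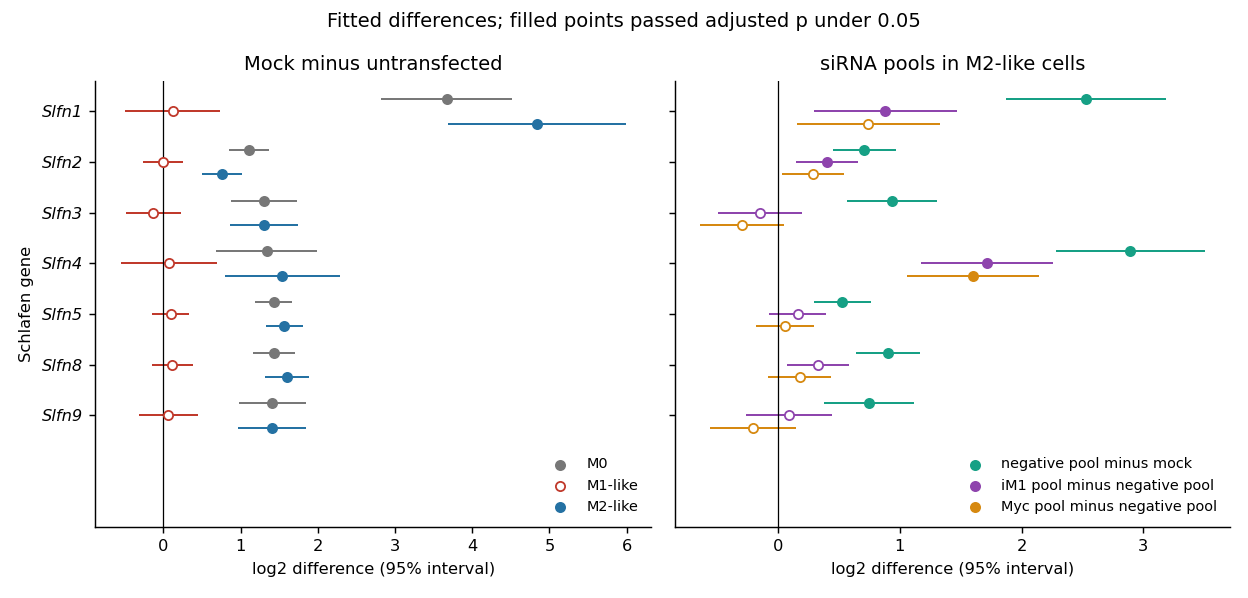
Fitted log2 differences with 95% intervals (x axis) for each Schlafen gene (y axis), on the left for mock minus untransfected in the 3 cell states and on the right for siRNA pools in M2-like macrophages, filled where the adjusted P was under 0.05. On the left all 7 M1-like values lie between -0.13 and 0.12 and are open, while on the right Slfn4 is filled for all 3 comparisons, at 2.90, 1.72 and 1.60.

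The negative siRNA pool, the control for delivery of siRNA, came with still higher levels. All 7 genes were higher with the negative pool than with mock in M2-like macrophages, by 0.53 to 2.90 (6.67% of all genes were called higher). Slfn4 went from 14.1, 24.5 and 13.9 CPM to 135, 142 and 113 CPM (2.90, SE 0.31, adjusted P = 9.20e-08) and Slfn1 from 10.8, 28.3 and 29.1 CPM to 119.6, 124 and 147 CPM (2.53, SE 0.34, adjusted P = 2.82e-06). These genes moved far more than the others, and their samples were apart, as they were for the other 5 genes. Slfn3 rose by 0.94, Slfn8 by 0.90, Slfn9 by 0.75, Slfn2 by 0.71 and Slfn5 by 0.53, with adjusted P of at most 0.00767. The call of Slfn9 was lost without the mock replicate 1 (0.59, adjusted P = 0.0745) or the negative pool replicate 3 (0.65, adjusted P = 0.0507). All 20 interferon-stimulated genes rose here too (median 1.30), as did Irf7 (1.99), Usp18 (1.73) and 5 other genes among the 17 ligands, receptors and transducers, of which 1, the receptor chain Ifngr1 (-0.41), fell, while 0 of the neighbours of the cluster passed. Of the tRNA cleavage genes, Ang (1.09), Rnase4 (0.86) and Rnh1 (0.56) rose. The eosinophil markers summed to 18.8 to 20.1 CPM with mock and 33.5 to 38.8 CPM with the negative pool (Epx and Prg2 at 0 in both), the neutrophil markers to 1.19 to 1.89 CPM and 3.20 to 3.77 CPM (Ly6g at 0 in both), and the macrophage markers to 14738 to 15998 CPM and 12429 to 13475 CPM, none of them overlapping. The mesothelial cell and fibroblast markers overlapped, at 156 to 257 CPM and 253 to 366 CPM. The part of these markers in the higher Schlafen levels was not tested.

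The iM1 combination was higher than mock M2-like macrophages for all 7 genes, by 0.69 for Slfn5 to 4.61 for Slfn4 (SE 0.33, adjusted P = 1.07e-12), with 19.0% of all genes called higher. Here 4 of the 9 measured neighbours of the cluster were higher and 0 lower. Compared with the negative pool, which received siRNA as well, 3 of 7 genes were higher with iM1 (12.5% of all genes): Slfn4, Slfn1 and Slfn2. Slfn4 had 410.5, 468 and 403 CPM with iM1 against 135, 142 and 113 CPM with the negative pool, 3.29-fold (log2 1.72, SE 0.28, adjusted P = 2.12e-05), and the call held in each fit that left out 1 sample. Slfn1 had 225, 214 and 281 CPM against 119.6, 124 and 147 CPM (0.88, SE 0.30, adjusted P = 0.0286). Its samples did not overlap, but the call was lost with DESeq2 and without the iM1 replicate 3 (0.75), the negative pool replicate 1 (0.82) or the negative pool replicate 2 (0.85).

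Slfn2 had 438, 430.1 and 536 CPM with iM1 against 358, 341 and 363 CPM (0.40, SE 0.13, adjusted P = 0.0203), a call lost without the iM1 replicate 3 (0.29) or the negative pool replicate 2 (0.38). Slfn8 (0.33, adjusted P = 0.0624), Slfn5 (0.16), Slfn9 (0.09) and Slfn3 (-0.15) did not pass, and the 95% interval of Slfn3 ran from -0.50 to 0.19. The long members thus gave no call between iM1 and the negative pool, which leaves differences up to 0.59 for Slfn8 and 0.44 for Slfn9 within their intervals. Compared with mock M1-like macrophages, iM1 was higher for 6 of 7 genes (27.2% of all genes), led by Slfn4 (4.35, SE 0.32, adjusted P = 4.75e-13) and Slfn1 (2.05, SE 0.31). Slfn5 (1.28), Slfn2 (0.90), Slfn8 (0.86) and Slfn9 (0.73) followed, and Slfn3 (0.40, adjusted P = 0.0610) passed without the iM1 replicate 1 (0.48, adjusted P = 0.0475).

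Of the single pools, Myc gave 1 call of 7 against the negative pool, which is close to the share of all genes called higher (13.9%). Slfn4 had 374, 412 and 396 CPM, all above the negative pool, 3.03-fold (log2 1.60, SE 0.28, adjusted P = 4.50e-05). Slfn1, at 209, 191 and 253 CPM, was also above every sample of the negative pool, but at 0.74 did not pass (SE 0.30, adjusted P = 0.0616), nor did Slfn2 at 0.28. The Myc count depended on the fit, with 3 of 7 genes passing without an expression filter and 4 with the compared groups alone. The Pparg pool gave 0 calls of 7 by edgeR and by DESeq2, with 5.74% of all genes called in either direction, and 2 calls without an expression filter or with the compared groups alone. Slfn4, the only gene of the family with an unadjusted P under 0.05 there, had 226, 223 and 182 CPM, above the negative pool in 3 of 3 samples (0.70, SE 0.27, adjusted P = 0.139). The E2f1 pool gave 0 calls of 7 by either tool and 0 at an unadjusted P under 0.05, with 0.910% of all genes called, and Slfn4 at 142, 203 and 128 CPM overlapped the negative pool. For the Stat6 pool there were 0 calls of 7 by either tool, with 1.51% of all genes called and 1 gene, Slfn3 (-0.39, adjusted P = 0.351), at an unadjusted P under 0.05. Over all 14172 genes, 2737 had an unadjusted P under 0.05 for the Pparg pool, 1539 for E2f1 and 1713 for Stat6. These comparisons share the samples of the negative pool. The shares of all genes called without an expression filter or with the compared groups alone are not given here, so those counts stand without a background.

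Pools were also compared with each other, which gave 10 calls in 70 tests of 1 gene in 1 pair of pools (10 pairs). This is close to the share of 14.2% called over all genes and pairs, so the count does not set the family apart. This count was 22 without an expression filter, 23 with the compared groups alone and 6 to 11 when 1 sample was left out. The shares of all genes called under these other fits are not given here. Slfn4 gave 6 of the 10 calls. It was higher with iM1 than with the Pparg (1.02, adjusted P = 0.00801), E2f1 (1.44, adjusted P = 0.000239) and Stat6 pools (1.32, adjusted P = 0.000640), and higher with Myc than with these 3 (0.91, adjusted P = 0.0155, then 1.32 and 1.20). The call of Myc over Pparg was lost without the Pparg pool replicate 3 (0.81, adjusted P = 0.0662). Slfn8 was higher with iM1 than with the Stat6 (0.48, adjusted P = 0.00838) and Pparg pools (0.37, adjusted P = 0.0478), Slfn2 than with the Stat6 pool (0.42, adjusted P = 0.0186) and Slfn1 than with the E2f1 pool (0.88, adjusted P = 0.0343). All 4 were lost without the iM1 replicate 3 (adjusted P = 0.0599, 0.212, 0.130 and 0.126, in the same order). Of the 6 fits that each left out 1 sample, the call of Slfn8 over Pparg was lost in all 6, that of Slfn1 in 5, that of Slfn2 in 3 and that of Slfn8 over Stat6 in 1. Between iM1 and the Myc pool, 0 of 7 genes passed by edgeR or DESeq2, with differences of 0.10 to 0.30. At an unadjusted P under 0.05 there were 0 of the 7, against 427 of 14172 genes, and edgeR called 7 of these 14172. The 95% interval for Slfn4 ran from -0.41 to 0.64.

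Interferon genes were quieter in the comparisons with the negative pool. Of the 20 interferon-stimulated genes, 6 rose with iM1 (median 0.40) and 1, Oasl1 (0.67), with the Myc pool. Ifnb1, which codes for interferon beta, rose with iM1 (3.15, SE 0.73, adjusted P = 0.00214) and with the Myc pool (3.22, SE 0.72, adjusted P = 0.00134), at low levels of 0.489 to 1.46 CPM and 0.592 to 1.86 CPM against 0 to 0.229 CPM with the negative pool, and it was at 0 in all untransfected and mock M2-like samples. Usp18 (0.88 and 0.79) and Stat2 (0.61 and 0.63) rose with both. Among the 17 ligands, receptors and transducers, 5 rose and 3 fell with iM1, and 4 rose and 3 fell with the Myc pool. The 3 that fell were the same, Ifngr2 (-0.22 and -0.28), the kinase Jak1 (-0.17 and -0.25) and the transcription factor Irf8 (-0.36 and -0.39). Among the 9 measured neighbours of the cluster, 4 rose and 1 fell with iM1 (median 0.35), and 4 rose and 1 fell with the Myc pool (median 0.42). Over all genes, 12.5% were called higher with iM1 and 13.9% with the Myc pool. Called lower were 1972 of 14172 genes with iM1 and 2213 with the Myc pool. Of the tRNA cleavage genes, Rnase4 fell with iM1 (-0.71) and with the Myc pool (-1.07), and Ang fell with the Myc pool (-0.83). Trdmt1, also of this list, rose with both (0.48 and 0.43). Mesothelial cell and fibroblast markers summed to 216 to 355 CPM with iM1 and 253 to 366 CPM with the negative pool, overlapping ranges. The neutrophil markers did not overlap, at 1.20 to 1.84 CPM with iM1 and 0.763 to 1.53 CPM with the Myc pool against 3.20 to 3.77 CPM with the negative pool (Ly6g at 0 in all 3), and their part in these results was not tested.

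Levels per kb of exon adjust for the length of each gene, but not for reads shared between near copies. On this scale Slfn2 was the highest member in all 15 conditions. Neighbours in the order overlapped in 5 of 18 places of the polarization and 20 of 72 of the reprogramming experiment. The levels of Slfn3, Slfn4, Slfn8 and Slfn9, and shares and sums that hold them, are less certain for this reason. In M0 macrophages of the polarization experiment the order was Slfn2 (67.7 CPM per kb), Slfn5 (27.9), Slfn8 (9.41), Slfn4 (3.96), Slfn3 (1.37), Slfn1 (1.02) and Slfn9 (0.998), of which the last pair overlapped. In M1-like macrophages Slfn1 was second (225 CPM per kb) after Slfn2 (581), and neighbours in the order from Slfn1 over Slfn4 and Slfn5 to Slfn8 overlapped. Slfn1 was the lowest member in M2-like macrophages of both experiments, at 0.656 and 0.421 CPM per kb.

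Summed over the 7 genes, the level per kb in the polarization experiment was 112 ± 4.21 for M0, 100.1 ± 8.64 for M2-like and 1257 ± 155 for M1-like macrophages (mean ± SD, n = 3). In the reprogramming experiment it was 104 ± 7.79 in untransfected M2-like macrophages, 222 ± 34.3 with mock, 431 ± 18.5 with the negative pool and 650.3 ± 57.2 with iM1. Slfn2 gave 73.8% of this sum in untransfected M2-like macrophages and 43.2% with iM1, while Slfn1 went from 0.405% to 19.7% and Slfn4 from 1.46% to 16.7%. In between, Slfn2, Slfn1 and Slfn4 gave 59.0%, 5.31% and 1.99% with mock and 49.4%, 16.2% and 7.63% with the negative pool. The make-up therefore moved from Slfn2 towards Slfn1 and Slfn4 along these conditions, also without a pool against the 4 factors. In M1-like macrophages of the polarization experiment the shares were 46.3% for Slfn2, 18.0% for Slfn1 and 11.6% for Slfn4.

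**Figure D5:**
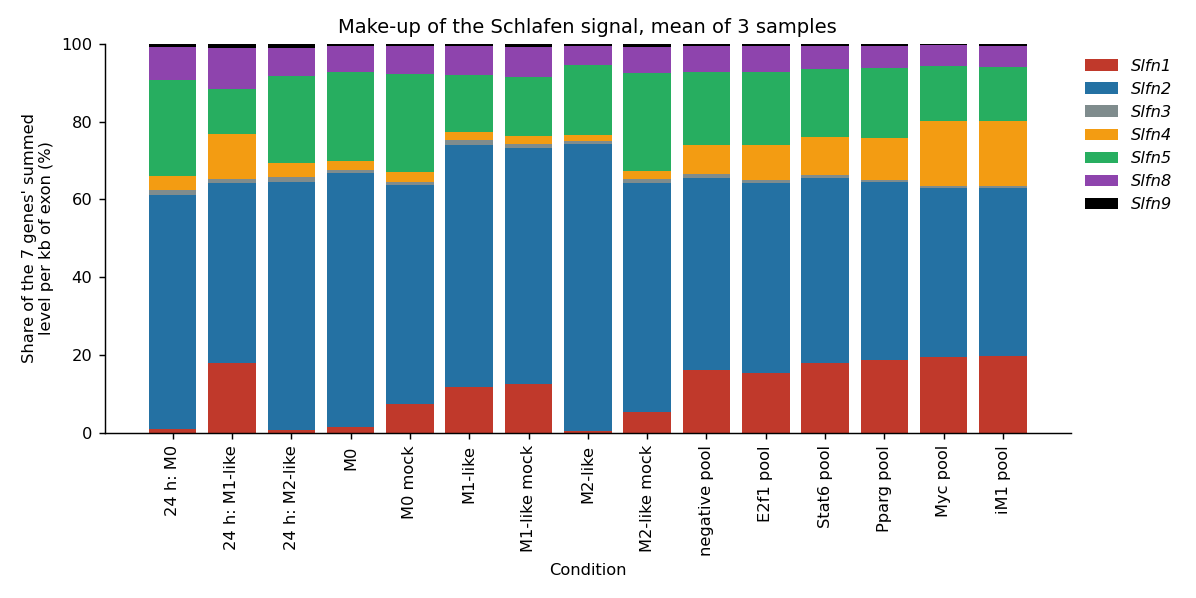
Mean share (%, y axis) of each Schlafen gene in the summed level per kb of exon of the 7 genes, by condition (x axis), where 24 h marks the polarization experiment. Slfn2 falls from 73.8% in untransfected M2-like macrophages to 49.4% with the negative pool and 43.2% with iM1. Slfn1 has 16.2% with the negative pool and 19.7% with iM1, and Slfn4 has 7.63% and 16.7%.

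The genes most like each member over the 12 conditions of the reprogramming experiment were found by Pearson's r of mean log2 CPM, among 10279 genes. Each point is the mean of 3 samples of 1 experiment, so these values describe a likeness and carry no test. Xaf1 came first for Slfn1 (r = 0.997) and for Slfn8 (0.992), Oasl1 for Slfn2 (0.991), Parp9 for Slfn3 (0.992), Cmpk2 for Slfn5 (0.996) and Gm5431 for Slfn9 (0.996). Slfn4 was most like Ms4a4c (0.989), Pla2g2e (0.988) and Ifit1bl1 (0.983), none of which was among the 3 nearest genes of another member. Among the members themselves, the 21 pairs had r between 0.79 and 0.99, with a median of 0.93.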

How the data were processed

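RNA sequencing read counts of 54 libraries were used. The authors trimmed reads with Trimmomatic, mapped them with TopHat to GRCm38/mm10 and counted them per gene with featureCounts, and the deposited counts are whole numbers without normalization. Tool versions, annotation, strand setting and treatment of multiply mapping reads are not given in the sources used here. Symbols and coordinates came from GENCODE M21.

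Samples were grouped by their labels. Technical replicates were summed. Low genes were removed by filterByExpr of edgeR (minimum count 10, minimum total 15), and counts were scaled with TMM and tested with the two-sided quasi-likelihood test of edgeR 4.0.16 (R 4.3.3) in 1 model per experiment, with Benjamini-Hochberg adjustment over all genes tested and a threshold of 0.05. The SE is the size of the log2 difference divided by the square root of F, and 95% intervals are 1.96 SE on either side. The numbers pair the polarization samples, since the labels name the mouse: the median correlation of deviations from the condition means was 0.25 in 9 pairs of samples from the same mouse and -0.14 in 18 pairs from different mice. In simulated counts (15868 genes for the polarization, 13860 for the reprogramming experiment) the test recovered 198 of 200 genes changed by a log2 fold of 2 in each, with 19 and 7 unchanged genes called. Only genes above a minimum mean count were changed, all other genes were equal between groups, and the spread came from the fitted dispersions. The recovery therefore does not bear on smaller differences or on genes with few reads. DESeq2 1.42.0, RLE size factors, no filter, a replicate block, only the compared groups, separate technical replicates, mock as the reference of single pools and leaving out each replicate were the alternatives.

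The 7 genes and the gene lists were chosen with earlier results of these data known. All members are named in the comparisons, the siRNA targets and other Schlafen genes are named, list members are given by counts with examples, and the likeness search names the 3 nearest genes with a mean log2 CPM of at least 2. Promoter sequences are RefSeq's (GRCm38.p6), found for all 7 genes. Protein sequences were not used here. Some list members are not reported here.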

Additional observations from a re-analysis of the deposited data

Results flagged for a closer look

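The response to mock transfection differed between M1-like macrophages and the other cell states by the interaction test of edgeR for 12 of 14 gene and comparison pairs. Over all genes, 1.09% were called lower in this test against M2-like and 5.85% against M0. Relative to M2-like macrophages, the M1-like response differed by -4.71 (log2) for Slfn1, -0.76 for Slfn2, -1.44 for Slfn3, -1.47 for Slfn5, -1.48 for Slfn8 and -1.34 for Slfn9. Relative to M0 macrophages it differed by -3.55 for Slfn1, -1.11 for Slfn2, -1.43 for Slfn3, -1.33 for Slfn5, -1.32 for Slfn8 and -1.35 for Slfn9. The Slfn2 call against M2-like was lost in several fits that each left out 1 sample (adjusted P between 0.0549 and 0.115). That of Slfn9 against M2-like was lost without the mock M2-like replicate 2 or the M2-like replicate 1. Both comparisons use the same M1-like samples. Groups held 3 samples, too few for a search of single samples that stand apart.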

How the results depend on the processing

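No difference called in the fit used or in an alternative changed direction between them, while differences near 0 that passed in neither could. By gene and comparison, DESeq2 kept the side of the threshold in 218 of 224 (3 lost, 3 gained), RLE size factors 223, and the fit without an expression filter 192, the other 32 passing in addition. Counts of Schlafen genes called moved as follows, beside other counts that moved by 1 gene each under these alternatives. Without a filter, 4 of 7 passed for untransfected M2-like against M0 (2 in the fit used), 3 for mock M1-like against mock M0 (1), 5 for mock M2-like against mock M0 (0), 3 for Myc (1), 2 for Pparg (0) and 1 for Stat6 (0) against the negative pool, and 22 of 70 tests between pools (10). With the compared groups alone, Myc gave 4, Pparg 2 and the pools 23. The shares of all genes called without a filter or with the compared groups alone are not given here. DESeq2 gave 1 for mock M2-like against mock M0. With mock in place of the negative pool as reference, Myc, Pparg and E2f1 each gave 7 and Stat6 5, where 2808, 1359, 894 and 869 of 14172 genes were called higher, in the order Myc, Pparg, E2f1 and Stat6. The cause was not tested. Leaving out 1 sample gave 1 to 4 calls for untransfected M2-like against M0, 1 to 2 for mock M1-like against mock M0, 0 to 3 for mock M2-like against mock M0, 1 to 3 for iM1 against the negative pool and 6 to 11 between pools. The labels give the replicates of the reprogramming experiment only a number, and what it stands for is not stated. Samples with the same number were more alike than others. The median correlation was 0.18 in 198 pairs with the same number, 66.2% of them over 0.1. It was -0.08 in 396 others, 5.81% of them over 0.1. In the polarization experiment 66.7% of the 9 pairs from the same mouse were over 0.1. The fit used does not take this likeness into account. With the replicate block, mock M2-like against mock M0 gave 2 calls, Myc 3 and the pools 17, and no count of the polarization experiment changed. Reads limit Slfn1 in untransfected M2-like macrophages (11 to 12 reads).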
